A study of Mus musculus with 40 samples.

Results

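The early transcriptional response of the mouse aorta to angiotensin II (Ang-II) was measured in wild-type (WT) male C57BL/6J mice, as 3 libraries after 2 h of Ang-II and 3 libraries of untreated mice. These 6 of the 40 libraries of the series were taken by their labels from the table of the cyclosporin A (CsA) experiment, and every one of its 15399 genes was compared. Treated mice carried a subcutaneous osmotic minipump that delivered Ang-II at 1 µg/kg/min and were kept for analysis only if their systolic blood pressure exceeded 130 mmHg. The untreated mice are labelled non-treated. In the study's design, control mice of this experiment had an operation without a pump when the CsA pumps were fitted to others. The study's general methods name mice operated on without a pump as controls for its CsA-treated and other groups. Whether the untreated mice compared here were also operated on at the time of the Ang-II pumps was not given in the sources used here. Ang-II, its pump implantation and the selection on pressure cannot be told apart. Each library pools 3 aortas, from which the adventitia and the perivascular tissue had been removed. No genotype, Cre or drug other than Ang-II distinguishes the groups, the mice were 10 to 12 weeks old when the experiment began, and the time of day of sampling was not given in the sources used here.

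Ang-II is a peptide hormone that raises blood pressure. In vascular smooth muscle it acts mainly through the AT1 receptor, which couples to Gq, releases calcium from intracellular stores and activates calcineurin and MAP kinases, and which transactivates the EGF receptor. Cells answer such stimuli first with immediate early genes, whose transcription needs no new protein, and then with the targets and the feedback inhibitors that these induce. The media of the aorta is made up mostly of smooth muscle cells, under an inner layer of endothelium.

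Values are given as signal, the reads of a gene divided by a scaled library size, which is close to CPM and allows a gene to be compared between libraries but not with another gene. The 6 libraries held 19 to 24.5 M assigned reads. Differences are log2 fold changes ± SE between the mean log2(signal + 0.5) of the 3 treated and the 3 untreated libraries, which understates the change of genes with low signal. A gene is called differentially expressed (a DEG) at a Benjamini-Hochberg adjusted p under 0.05 in limma, adjusted over all genes. The SEs and p-values use a spread estimated for each gene over all 18 libraries of the table, including its CsA and 24 h groups. Nothing in the labels says that the pools came from separate experiments, so the p-values measure the spread between pools of this table.

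The smooth muscle identity of the tissue was plain in every library, with summed signals of 8 smooth muscle markers of 25742, 30853, and 35261 untreated and 35128, 28384, and 35655 at 2 h. Of the 63 markers measured for 10 other cell types, limma called 0, edgeR 1 and DESeq2 3, and 2 had an unadjusted p under 0.05. The markers were nevertheless uneven between the pools. Macrophage markers summed to 183, 129, and 143 untreated and to 113, 381, and 125 at 2 h, and cardiac muscle markers to 331, 127, and 58.4 and 36.2, 307, and 45.4. Lymphocyte markers, of which 3 of 9 are in the table, summed to 1.83, 2.15, and 1.64 and 15.6, 1.29, and 5.42. Without treated replicate 2, described below, limma called 2 of these 3 higher, with a median of 2.13, and 1 of 9 macrophage markers lower. Among the remaining cell types apart from smooth muscle it called none.

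Replicate 2 of the treated group stood apart from replicates 1 and 3. Among 9628 genes with a mean of at least 10 in a group, 34 were over 8-fold higher in it than in replicates 1 and 3 and 0 were over 8-fold lower. Secretory genes of the airway led the 34, chosen here after their values were seen: Bpifa1 had a signal of 2.80, 3371, and 0.437 in the treated replicates and Scgb1a1 of 0.898, 1468, and 1. Both were at or under 5.53 in every untreated library. Heart muscle genes such as Myl2, at 0.0257, 43, and 0.231, were also high in it, and Myl2 had 26.7 in untreated replicate 1. Values without replicate 2 are given below for several lists and genes, and the part of these transcripts in the other results was not tested.

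**Figure D1:**
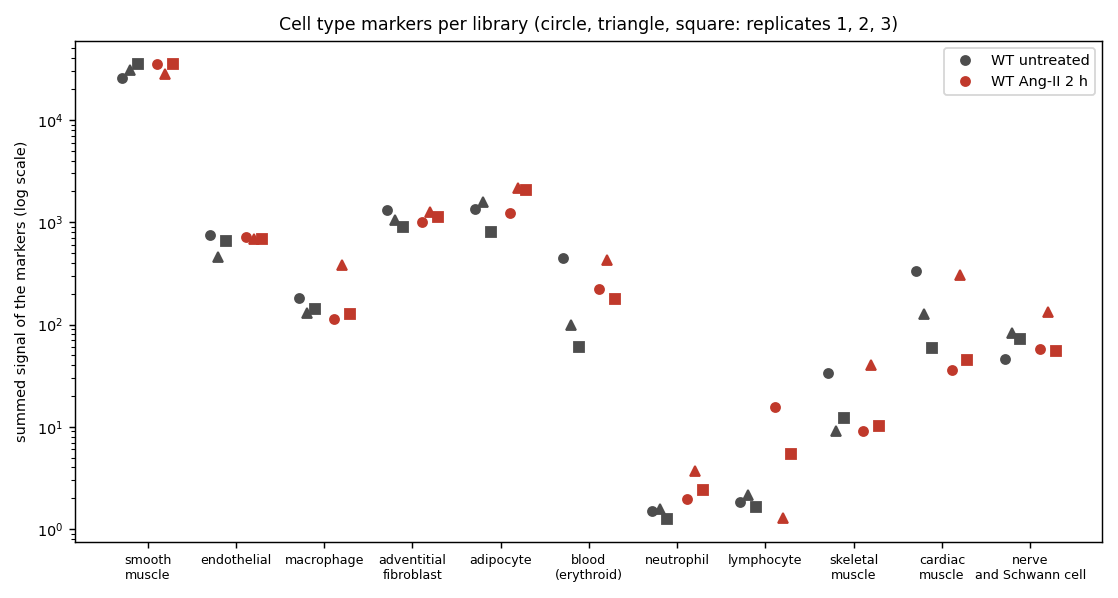
Summed signal of the markers of 11 cell types (log axis), 1 point per library, for untreated aortas and after 2 h of Ang-II, with circles, triangles and squares for replicates 1, 2 and 3. Smooth muscle markers lie between 25742 and 35655 in the 6 libraries compared, and the macrophage, cardiac, skeletal muscle and nerve sums at 2 h are highest in replicate 2.

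At 2 h of Ang-II 1638 genes (10.6%) were higher and 1491 (9.68%) lower than in untreated aorta, and the changes over 2-fold were mostly increases, with 434 genes higher (2.82%) and 134 lower (0.87%). Past 4-fold there were 115 higher and 3 lower genes, and 35 were over 8-fold higher. The 434 genes took 3.14%, 3.25%, and 3.97% of the reads of the untreated libraries and 14.1%, 11.6%, and 13.6% of the reads at 2 h. Of the 434, 376 code for protein, as do 108 of the 134 lower genes and 13741 of all 15399 genes.

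The balance of higher and lower genes rested on the scaling. The column totals of the deposited table were 877583 to 939727 in the untreated libraries and 1040810 to 1154870 at 2 h, and the median log2 fold change of all genes was 0.018. When every library was instead scaled to the same total, that median shifted to −0.251 and 768 genes were higher and 4708 lower, with 270 and 492 over 2-fold. Quantile normalization gave 1170 higher and 1798 lower, and 364 and 132 over 2-fold. Changes below are on the deposited scale, relative to its median gene. That this gene hardly moved depends on the scaling, and whether most genes were unchanged was not tested. Without replicate 2 of the treated group 1789 genes were higher and 1295 lower. In 3003 genes (19.5%) all treated libraries exceeded all untreated ones and in 3131 (20.3%) they all lay below.

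**Figure D2:**
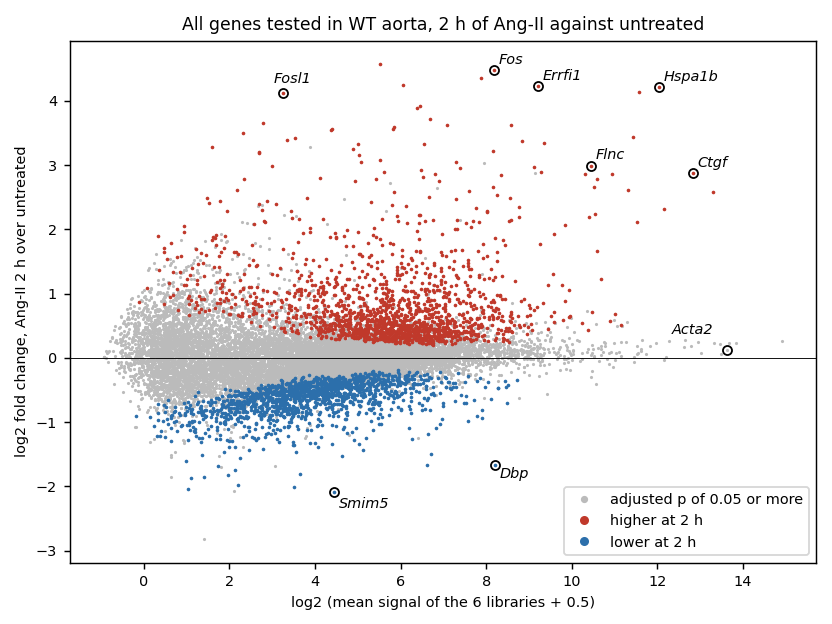
Log2 fold change at 2 h (vertical axis) against the level in the compared libraries, as log2 of the mean signal + 0.5 (horizontal axis), for all 15399 genes. The 1638 genes called higher and the 1491 called lower are coloured, and the larger changes are increases.

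The listed immediate early genes rose nearly as a whole. Of 26 listed 23 rose, 21 of them over 2-fold, where 10.6% and 2.82% of all genes did. The median log2 fold change of the list was 2.04. This list and those below were written with earlier results of these data known, and some share members. Their counts describe the listed genes, and the choice of a list supports nothing. Fos, the partner of Jun in the AP-1 complex, (chr12:85473890-85477273, GRCm38) had a signal of 13.3, 18.8, and 55.5 in the 3 untreated libraries and of 426, 675, and 567 at 2 h, a log2 fold change of 4.47 ± 0.53 (limma adjusted p = 2.09e-05). Its relative Fosb went from 13.5, 22, and 32.2 to 429, 386, and 526 (4.35 ± 0.47), and Fosl1 from 0.256, 0.731, and 0.426 to 20.7, 8.69, and 23.1 (4.13 ± 0.45). In each case the groups were far apart, and the third untreated library was the highest of its group for Fos and Fosb.

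Effector and growth genes of the list rose too. Arc, a synaptic immediate early gene, stood at 4.79, 5.56, and 8.33 untreated and at 152, 92.6, and 136 after Ang-II (4.25 ± 0.39). The nuclear receptor gene Nr4a3 read 21.5, 21.1, and 16.5 and then 293, 212, and 245 (3.63 ± 0.25, limma adjusted p = 1.35e-07). Myc, the growth regulator, had 3.02, 2.72, and 2.17 in untreated aorta and reached 41.3, 21.1, and 51.8 (3.54 ± 0.33). Its lowest treated value was in replicate 2, without which its log2 fold change was 3.91.

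Other factors on the list rose by less. Klf6 went from 207, 282, and 358 to 949, 841, and 1037 (1.77 ± 0.22) and Jund from 383, 347, and 590.5 to 1000.2, 910.0, and 919.8 (1.14 ± 0.19). Of genes picked from the list after their values were seen, Egr1, a zinc finger factor, had 61.9, 71.1, and 109 and 489, 606, and 609.7 (2.84 ± 0.29), Atf3, a stress-induced repressor, 49, 69.7, and 146 and 786, 786, and 903 (3.37 ± 0.44), and Nr4a1 46.2, 88.2, and 153 and 415, 443, and 399 (2.28 ± 0.36). Jun and Junb rose by 2.34 ± 0.35 and 2.21 ± 0.25. The 3 members without a call were Klf5, at 1.75, 1.7, and 2.41 and 1.87, 16.9, and 2.18, with its one high value in replicate 2, Klf10 (-0.01 ± 0.18), and Srf (0.04 ± 0.11), the factor that binds many of these promoters. At 24 h the list as a whole had a median of 0.32 on the log2 scale relative to untreated aorta.

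**Figure D3:**
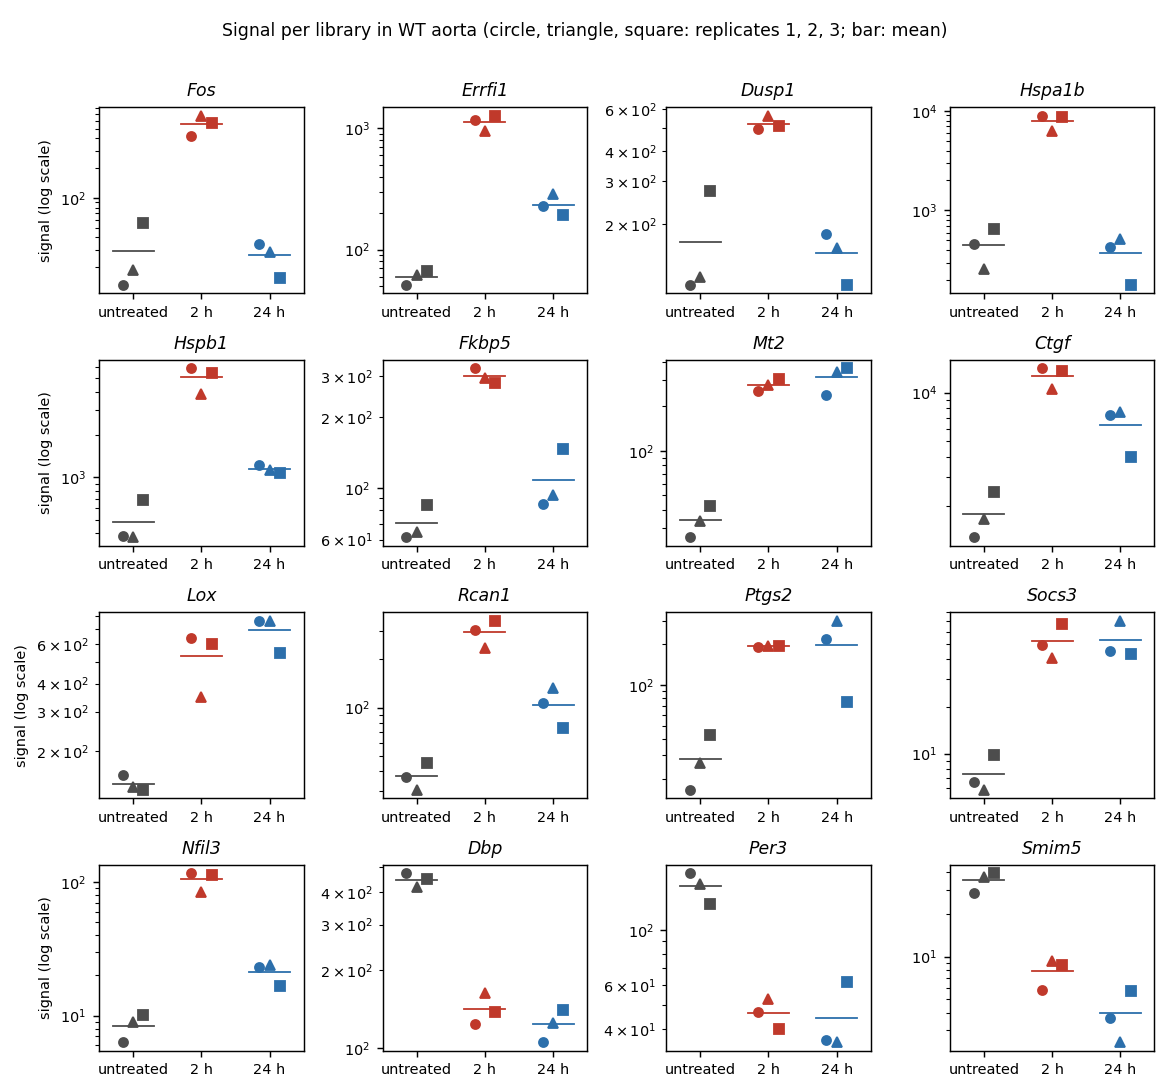
Signal (log axis) of 16 genes in each library of untreated aorta and of aorta after 2 h and 24 h of Ang-II, 1 point per library, with the mean of each group as a bar. For Fos, Errfi1, Hspa1b and Nfil3 the treated libraries at 2 h lie far above the untreated ones, and for Dbp, Per3 and Smim5 they lie below all of them.

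Short sequence motifs of the factors that act in such responses were looked for, on both strands, in RefSeq promoters of GRCm38.p6. The promoters of 4 genes of this response, Fos, Nr4a1, Dusp1 and Atf3, are shown as examples because each holds the CRE core TGACG, the sequence bound by CREB, an activator that responds to calcium and cAMP. Each line gives the 200 bases before the annotated start, 5′ to 3′ on the strand of the gene, with the CRE core in capitals. In Dusp1 2 cores overlap in the full palindrome TGACGTCA, and in Fos the TATA box, TATAAA, is in capitals too.
Fos, chr12:85473690-85473889, + strand: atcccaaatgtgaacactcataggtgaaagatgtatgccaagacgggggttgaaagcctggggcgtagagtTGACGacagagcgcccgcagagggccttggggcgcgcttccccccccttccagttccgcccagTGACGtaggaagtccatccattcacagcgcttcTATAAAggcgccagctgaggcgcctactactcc
Nr4a1, chr15:101266646-101266845, + strand: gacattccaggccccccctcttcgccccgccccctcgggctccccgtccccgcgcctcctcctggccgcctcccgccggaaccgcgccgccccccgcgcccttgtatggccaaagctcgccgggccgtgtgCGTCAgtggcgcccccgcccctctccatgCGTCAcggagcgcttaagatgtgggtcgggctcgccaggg
Dusp1, chr17:26508473-26508672, − strand: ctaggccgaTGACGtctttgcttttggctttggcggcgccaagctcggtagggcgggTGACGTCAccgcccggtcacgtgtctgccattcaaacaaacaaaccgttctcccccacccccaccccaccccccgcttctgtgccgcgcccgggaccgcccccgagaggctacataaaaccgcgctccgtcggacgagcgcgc
Atf3, chr1:191183334-191183533, − strand: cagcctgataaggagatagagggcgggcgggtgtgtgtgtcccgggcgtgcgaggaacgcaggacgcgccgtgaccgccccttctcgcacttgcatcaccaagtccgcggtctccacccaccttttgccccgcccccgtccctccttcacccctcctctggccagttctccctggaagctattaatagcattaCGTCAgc
The cores lie 129 to 125 and 66 to 62 bases before the start of Fos, and 7 to 3 bases before that of Atf3. A match is a description of the letters and not a measured binding site: 29.2% of all 14126 windows of 300 bases hold TGACG on either strand, 2.85% hold TGACGTCA and 7.72% TATAAA. Windows were found for 282 of the 434 genes over 2-fold higher (65%), for 87 of the 134 lower genes (64.9%) and for 11067 of 15383 genes with a symbol (71.9%), too few for the shares of these sets to be compared.

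Among the feedback inhibitors of the MAP kinase and EGF receptor pathways, 10 of 20 rose, 7 of them over 2-fold. Of all genes 10.6% and 2.82% did, and the list median was 0.51. Errfi1, an inhibitor that binds the EGF receptor (chr4:150853919-150868892, GRCm38), had a signal of 51.2, 61.3, and 66.6 untreated and of 1171, 943, and 1269.5 at 2 h, a log2 fold change of 4.23 ± 0.19 (limma adjusted p = 4.45e-09). The treated values were all far above the untreated ones, which lay close together. Dusp1, a phosphatase that inactivates MAP kinases, went from 111, 120.0, and 274 to 496, 564, and 509 (1.76 ± 0.31), and Dusp5, Dusp8 and Dusp10 rose by 1.70, 1.26 and 1.07. Spry2, an inhibitor of receptor tyrosine kinase signalling, rose by 1.14 ± 0.20. The call of Dusp10 was held in 14 of 20 settings of the analysis and was lost, among others, without replicate 1 of either group.

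The ligands of the same receptor moved in both directions. Hbegf, the heparin-binding ligand that is shed upon Ang-II stimulation, rose from 29.7, 35.5, and 38.5 to 164, 114, and 189 (2.13 ± 0.32) and Ereg, epiregulin, from 9.72, 10.2, and 12.5 to 33.9, 17.2, and 30.2 (1.24 ± 0.27). Egfr itself rose by 0.59 ± 0.13, which was lost when all libraries were scaled to the same total. Btc, betacellulin, fell by 0.63 on the log2 scale and Adam17, the protease that releases several of these ligands, fell by 0.45. Of the 10 genes measured on this list 3 rose and 2 fell, against 10.6% and 9.68% of all genes. The call of Btc held in 14 of 20 settings.

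Of the renin-angiotensin system itself 9 genes were measured, of which 1 rose and 1 fell, near the 10.6% and 9.68% of all genes. Lnpep, the aminopeptidase that binds angiotensin IV, rose (0.68 ± 0.14), and Agtrap, an AT1 receptor-associated protein, fell (-0.32 ± 0.10), a call that held in 14 of 20 settings. The AT1 receptor genes did not pass the test. Agtr1a had 2.31, 1.63, and 1.56 untreated and 1.82, 1.73, and 2.13 at 2 h (0.05 ± 0.56), and Agtr1b 3.69, 5.11, and 8.53 and 7.52, 4.63, and 6.4 (0.14 ± 0.27). Ace, the converting enzyme, had 373, 296, and 356 and 408, 366, and 381 (0.18 ± 0.15). The ranges of the groups overlapped for all 3 genes.

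In the calcineurin pathway the largest change was that of Rcan1. Calcineurin is the calcium-dependent phosphatase that activates NFAT factors, and Rcan1, which encodes a calcineurin-binding regulator and is itself an NFAT target (chr16:92391953-92470867, GRCm38), had a signal of 36.9, 30.7, and 45.2 untreated and of 304, 234, and 349 at 2 h, a log2 fold change of 2.96 ± 0.21 (limma adjusted p = 1.47e-07). The groups did not overlap. Nfatc2 rose from 3.21, 3.02, and 4.28 to 8.39, 8.09, and 7.53 (1.10 ± 0.15), Nfatc1 by 0.59 ± 0.14 and the catalytic subunit gene Ppp3cc by 0.77 ± 0.12. Nfatc4 fell by 0.46 and Rcan3 fell by 0.71 on the log2 scale, the latter in only 11 of 20 settings. The subunit genes Ppp3ca, Ppp3cb and Ppp3r1 differed by -0.05 ± 0.10, 0.00 ± 0.09 and 0.06 ± 0.10. Over the list of 12 genes 4 rose and 2 fell, against 10.6% and 9.68% of all genes. The list median of 0.03 was −0.12 relative to all genes under quantile normalization.

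Rcan1 has 2 annotated starts in the RefSeq table, and the window before the downstream start is shown because it holds NFAT motifs, GGAAA on either strand, in capitals.
Rcan1, downstream start, chr16:92400079-92400278, − strand: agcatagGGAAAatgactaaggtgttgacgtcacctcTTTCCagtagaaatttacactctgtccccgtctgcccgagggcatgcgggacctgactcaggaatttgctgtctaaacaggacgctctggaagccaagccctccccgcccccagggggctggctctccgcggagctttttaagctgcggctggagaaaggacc
The 2 motifs lie 193 to 189 and 163 to 159 bases before that start, and the window also holds TGACGTCA. In the 200 bases before the upstream start no GGAAA was found. GGAAA is a short motif that occurs in 58.9% of all windows, and the signal of the gene does not tell its 2 transcripts apart.

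Of 26 genes measured that set vascular tone 2 rose and 3 fell, shares near the 10.6% and 9.68% of all genes, with a median of 0.25 that was 0.10 without treated replicate 2. Ptgs2, which encodes the inducible cyclooxygenase, rose from 16.7, 26.3, and 42.2 to 193, 195, and 196 (2.85 ± 0.44, limma adjusted p = 2.45e-04). The treated pools were within a few units of each other while the untreated ones spread widely. Gucy1a3, a subunit of soluble guanylate cyclase, fell from 235, 255, and 267 to 125, 129, and 129.9 (-0.98 ± 0.15). Adra1d, an alpha-1 adrenergic receptor, fell by 0.80 and Calcrl, a receptor component for adrenomedullin and CGRP, fell by 0.60, while Adm, adrenomedullin, rose by 0.68 ± 0.18 in 15 of 20 settings. Rgs2, an inhibitor of Gq signalling, rose from 29.9, 35.6, and 23.3 to 55, 79.4, and 63.8 (1.15 ± 0.24), and Rgs3 fell by 0.54. They were the 2 calls among 12 RGS genes, which is near the share of all genes called in each direction.

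Regulators of inflammatory signalling rose in part. Of 31 measured targets and inhibitors of NF-kB and STAT3 13 rose and 1 fell, against 10.6% and 9.68% of all genes. The list median was 0.44. Socs3, the inhibitor of cytokine receptor signalling, went from 6.56, 5.86, and 9.75 to 49.2, 40.9, and 67.1 (2.75 ± 0.33), Zfp36, which destabilizes cytokine mRNAs, from 45.2, 51.9, and 83.6 to 253, 250.3, and 271 (2.14 ± 0.18), and Nfkbiz from 18.7, 20.7, and 27.7 to 110.0, 80.0, and 109.7 (2.14 ± 0.17). Nfkbia, the inhibitor IkB-alpha, rose by 1.30 ± 0.12, Il6ra by 1.28 ± 0.18, Bcl3 by 1.65 ± 0.36 and Stat3 by 0.85 ± 0.11. For each of these the lowest treated value was above the highest untreated one. The same held for 18 of the 31 on the list and for 19.5% of all genes.

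Of 20 chemokines and cytokines measured 3 rose, near the 10.6% of all genes, with a median of 0.39. Without treated replicate 2 there were 2 calls and the median was 0.27. Csf3, the granulocyte colony-stimulating factor, was at 0 reads in all 3 untreated libraries and at a signal of 1.41, 0.959, and 2.13 at 2 h, and since its fitted fold change would depend on the value added, none is given. Csf1 rose by 0.50 ± 0.11 and Cxcl1 by 0.94 ± 0.32. These calls were held in 18 of 20 and 10 of 19 settings. Il6, named after its values were seen, had 0.0197, 0.0187, and 0.182 untreated, 0.539, 0.685, and 0.54 at 2 h and 6.33, 5.55, and 1.69 at 24 h. Ccl2, which was likewise chosen, had 0.611, 0.318, and 0.507, 0.385, 2.66, and 1 and 5.72, 15, and 7.99. Neither passed the test at 2 h.

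The listed heat shock genes rose as a group. Of 24 heat shock proteins and cochaperones 22 rose, 18 of them over 2-fold, where 10.6% and 2.82% of all genes did. Their median log2 fold change was 1.59, and their share of the reads went from between 0.705% and 0.847% to between 2.9% and 3.81%. Hspa1b, an inducible HSP70, had a signal of 463, 256, and 646 untreated and of 8934, 6263, and 8697 at 2 h (4.21 ± 0.45, limma adjusted p = 9.10e-06). Hspa1a, its near-identical neighbour, had 332, 199, and 499 and 6266, 4509, and 6435 (4.14 ± 0.46), and since the reads of such copies can be split between them, the pair is better read together. At 24 h they had 434, 514, and 179 and 303, 335, and 105.

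Chaperones of other families rose too. Dnajb1, an HSP40 that works with HSP70, rose from 49.7, 52.5, and 69.4 to 773, 569.5, and 795 (3.63 ± 0.25), and Hspb1, the small heat shock protein that binds actin filaments, from 381, 374, and 683 to 5893, 3898, and 5464 (3.44 ± 0.23). Hsph1, Bag3 and Hspa8 rose by 2.89, 2.49 and 2.32, and Hsp90aa1 and Cryab, named after their values were seen, by 2.19 and 2.19. The 2 members without a call were Hspb6 (0.04 ± 0.14) and Hsf1 (0.04 ± 0.10), which encodes the heat shock transcription factor and is known to be controlled at the protein level. Replicate 2 had the lowest treated value for each of the 7 rule-named members, and without it the median of the list was 1.71. The part of the pump implantation in these values cannot be told apart from that of Ang-II.

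The heat shock element, GAANNTTC, is shown in capitals in the 200 bases before the starts of 2 of these genes, because the element is the site of the heat shock factor.
Hspa1b, chr17:34959239-34959438, − strand: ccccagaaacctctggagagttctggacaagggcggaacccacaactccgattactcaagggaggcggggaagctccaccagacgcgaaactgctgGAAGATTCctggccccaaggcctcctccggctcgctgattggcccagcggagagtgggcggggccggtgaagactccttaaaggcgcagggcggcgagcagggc
Hspb1, chr5:135887719-135887918, + strand: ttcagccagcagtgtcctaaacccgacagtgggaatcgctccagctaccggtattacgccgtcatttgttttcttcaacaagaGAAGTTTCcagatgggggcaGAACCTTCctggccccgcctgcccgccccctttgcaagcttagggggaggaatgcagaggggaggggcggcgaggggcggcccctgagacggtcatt
The match in Hspa1b lies 104 to 97 bases before the start, and those in Hspb1 117 to 110 and 97 to 90 bases before it. This pattern was found in 5.8% of all windows.

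The listed genes that answer to glucocorticoids, the adrenal stress hormones, rose nearly as a whole. Of 20 listed genes 18 rose, 16 of them over 2-fold, where 10.6% and 2.82% of all genes did, with a median of 1.76. The 1 that fell was Nr3c1, which encodes the glucocorticoid receptor (159.6, 171, and 160.3 to 128, 109.6, and 118, -0.47 ± 0.08). Fkbp5, a cochaperone of that receptor, went from 61.3, 64.9, and 84.7 to 325, 295, and 279.8 (2.10 ± 0.20, limma adjusted p = 3.22e-06), Sgk1, a kinase that regulates sodium transport, from 66.5, 74.8, and 87.2 to 317, 307, and 381 (2.13 ± 0.19), and the metallothionein gene Mt2 from 26, 33.4, and 42.4 to 254, 278, and 306 (3.05 ± 0.31). In all 3 the untreated and treated pools were well separated.

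Other members of the list have further inducers. Mt1 rose by 2.12 ± 0.27 and Cdkn1a, the p21 cell cycle inhibitor, from 27.1, 29.8, and 32.7 to 141, 123, and 162 (2.23 ± 0.19). Zbtb16 and Tsc22d3, 2 classical targets named after their values were seen, rose by 2.00 ± 0.18 and 1.40 ± 0.16. Errfi1 and Dusp1, above, are on this list too, and Angptl4 was the gene without a call (0.88 ± 0.34). Corticosterone was not measured here, and the part of the pump implantation and hour of sampling cannot be told apart from that of Ang-II.

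Clock genes moved in both directions. Of 19 measured 5 rose and 5 fell, against 10.6% and 9.68% of all genes. The list median was −0.08, or 0.01 without treated replicate 2. Nfil3, a repressor of the D-box, rose from 6.33, 8.94, and 10.1 to 116, 83.6, and 114 (3.56 ± 0.26, limma adjusted p = 1.66e-07), and Arntl, the core activator BMAL1, from 0.966, 0.768, and 0.71 to 5.88, 5.46, and 6.4 (2.29 ± 0.39). Per1, Rora and Clock rose by 0.81, 0.78 and 0.35, and the call of Clock held in 12 of 20 settings.

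The 3 D-box activators of the PAR bZIP family fell together. Dbp went from 474, 421, and 449 to 124, 163, and 138 (-1.67 ± 0.18), Hlf from 101, 104, and 92.5 to 50.9, 52.5, and 36.6 (-1.10 ± 0.17) and Tef from 443, 446, and 444 to 278, 271, and 268 (-0.71 ± 0.12). Per3 fell from 168, 153, and 127 to 46.7, 52.9, and 40.1 (-1.67 ± 0.18) and Bhlhe41 by 0.79 on the log2 scale. On the list of 19, 6 genes had every treated value below the untreated range, against 20.3% of all genes. These 5 were among them. These transcripts cycle over the day, and the hour at which each pool was taken was not given in the sources used here, so that a difference in hour between the groups cannot be told apart from the treatment.

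Secreted and pericellular matrix genes rose in part. Of 32 matricellular, hyaluronan and protease genes 12 rose, 11 of them over 2-fold, where 10.6% and 2.82% of all genes did. The list median was 0.47. Ctgf, which encodes a matricellular CCN protein, had a signal of 1277, 1655, and 2437 untreated and of 14159.9, 10504, and 13597 at 2 h (2.87 ± 0.31, limma adjusted p = 8.50e-06). Its relative Cyr61 had 142, 370.4, and 1049 and 2406, 2679, and 2181 (2.66 ± 0.57), with untreated pools that differed widely. Thbs1, thrombospondin 1, went from 63.5, 33.2, and 66.9 to 427, 211, and 351 (2.59 ± 0.37).

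Genes of hyaluronan synthesis and binding were among those that rose. Tnfaip6, a hyaluronan-binding protein, rose from 3.09, 2.49, and 2.7 to 41.7, 30.8, and 42 (3.56 ± 0.28), and the synthase genes Has1 and Has3 from 0.374, 0.393, and 0.466 and 4.83, 6.73, and 7.08 to 4.03, 5.18, and 3.93 and 33.3, 26.5, and 28.6 (2.41 ± 0.29 and 2.17 ± 0.29). Adamts1, a versican-cleaving protease named after its values were seen, rose by 2.07 ± 0.20. Structural matrix genes changed less, with 5 of 23 higher, against 10.6% of all genes, and a median of 0.19. Without treated replicate 2 the median was 0.37 with 7 higher, and under quantile normalization it was −0.11 relative to all genes. Lox, the enzyme that crosslinks collagen and elastin, rose from 156, 138, and 134 to 639, 348, and 604 (1.84 ± 0.22) and was lowest in treated replicate 2, without which the change was 2.12. Loxl2, Col12a1, Col4a1 and Vcan were the other calls (0.64, 0.68, 0.43 and 0.41), and the last 3 held in only 14 of 20, 13 of 20 and 13 of 20 settings, Col4a1 turning to −0.0511 under quantile normalization. Col1a1 and Col3a1 differed by 0.01 ± 0.16 and -0.14 ± 0.16.

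Genes of the cytoskeleton and of adhesion rose in part. Of 32 actin and focal adhesion genes 12 rose, against 10.6% of all genes, with a median of 0.33. Without treated replicate 2, 16 rose, with a median of 0.44. Flnc, filamin C, went from 261, 284, and 385 to 2835, 1681, and 3004 (2.99 ± 0.32) and Itga5, the fibronectin receptor subunit, from 384, 476, and 725 to 2895, 1762, and 2724 (2.24 ± 0.28). Filip1l rose by 1.14 ± 0.19, Pdlim5 by 0.92 ± 0.20 and Tpm4 by 0.80 ± 0.14. Both Flnc and Itga5 were lowest in treated replicate 2, in which they still lay above every untreated pool.

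Of 20 contractile genes 5 rose, against 10.6% of all genes, with a median of 0.08. Without treated replicate 2 the median was 0.18 with 4 higher, and under quantile normalization it was −0.34 relative to all genes, with 2 higher and 11 lower. Myocd, the coactivator of SRF that drives smooth muscle differentiation, rose from 77.1, 61.4, and 59.3 to 210.2, 121, and 207 (1.40 ± 0.28, limma adjusted p = 0.002). With calls lost in some settings, Des rose by 0.78 ± 0.24, Cnn1 by 0.58 ± 0.18 and Actg2 by 0.47 ± 0.16. Acta2, smooth muscle actin, had 9673, 12206, and 14795 and 13771, 11194, and 14385 (0.11 ± 0.27) and Myh11, smooth muscle myosin, 7022, 8104, and 9098 and 9371, 7318, and 8959 (0.08 ± 0.21). The ranges of the groups overlapped in both, and Myh11 had −0.47 under quantile normalization. In bulk tissue fewer cells of a type and less RNA per cell cannot be told apart.

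Of 32 genes of TGF-beta and BMP signalling 8 rose and 2 fell, against 10.6% and 9.68% of all genes, with a median of 0.21. Tgfb2 rose from 112, 101, and 107 to 469, 245, and 428 (1.78 ± 0.28), the receptor gene Tgfbr1 from 169, 180.4, and 162 to 525, 301, and 425 (1.25 ± 0.19), and Smad1 and the corepressor Skil by 1.20 ± 0.14 and 1.14 ± 0.18. Smad6, the inhibitory Smad of BMP signalling, fell from 49.3, 58.7, and 71.1 to 29.7, 32.5, and 24.6 (-1.02 ± 0.18). Treated and untreated values did not overlap in any of these 5. On the list of 32, 11 genes lay wholly above and 4 wholly below the untreated range, against 19.5% and 20.3% of all genes. Of 22 connexin and calcium handling genes 2 rose and 2 fell, shares near the 10.6% and 9.68% of all genes. Gja1, which encodes connexin 43, rose from 150.0, 141, and 162 to 321, 259.8, and 342 (1.02 ± 0.23), Trpc1 rose by 0.37 ± 0.12, and Gja4 and Cacnb3 fell by 0.66 and by 0.59 on the log2 scale, of which Trpc1 and Gja4 held in 12 of 20 and 13 of 20 settings.

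Of 20 growth arrest and p53 target genes 14 rose, against 10.6% of all genes, with a median of 0.70. Btg2, an antiproliferative immediate early gene, went from 52.4, 66.5, and 129 to 496, 494, and 468 (2.66 ± 0.28), Trib1 from 16.2, 17, and 19 to 95.4, 78.1, and 104 (2.37 ± 0.16) and Plk3 from 3.61, 4.25, and 7.48 to 19.4, 18.2, and 23.6 (1.95 ± 0.27). Gadd45g and Btg3 rose by 1.58 and 1.30. Ier3, an immediate early gene of cell survival, rose from 26.8, 28.5, and 42 to 158, 122, and 137 (2.10 ± 0.25). Of 12 cell cycle genes 2 rose, Pcna (0.48 ± 0.11) and Ccnd3 (0.27 ± 0.09), and 1 fell, Mcm2 (-0.63 ± 0.21), against 10.6% and 9.68% of all genes. The call of Ccnd3 was lost when the libraries were scaled to the same total and that of Mcm2 when any single library was left out.

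Metabolic and proteostatic genes changed in smaller steps. In the Myc, polyamine and ribosome biogenesis list 9 of 21 rose, against 10.6% of all genes (list median 0.21). Among them were the polyamine genes Sat1 (1.28 ± 0.15) and Azin1 (1.24 ± 0.14). In the unfolded protein and integrated stress response list 9 of 20 rose and 1 fell, against 10.6% and 9.68% of all genes (list median 0.22). Ppp1r15a, the phosphatase subunit that ends the integrated stress response, went from 31.7, 35.9, and 53.2 to 172, 153, and 204 (2.14 ± 0.23) and its upstream factor Atf4 from 99.7, 109, and 124 to 298, 242, and 330.1 (1.38 ± 0.14). Sdf2l1, a chaperone of the endoplasmic reticulum, was the one that fell (-0.85 ± 0.25). Calr and Hsp90b1, the members with the highest signal, differed by 0.07 ± 0.11 and 0.13 ± 0.13.

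Redox, sugar and lipid genes rose in part, where 10.6% of all genes rose and 9.68% fell. In the oxidative stress list 5 of 19 rose and 1 fell (median 0.20), led by Hmox1, heme oxygenase 1, from 6.68, 5.98, and 6.83 to 22.9, 14.7, and 23.2 (1.54 ± 0.18), and by Gclc and Nfe2l2, the gene of NRF2 (0.93 ± 0.17 and 0.82 ± 0.08). Keap1, the inhibitor of NRF2, was the one that fell (-0.28 ± 0.09). In the glucose and hypoxia list 5 of 23 rose (median 0.26), with Hk2, hexokinase 2, at 1.26 ± 0.13 and the glucose transporter Slc2a1 at 0.84 ± 0.19. In the cholesterol list 7 of 17 rose (median 0.47), among them Sqle (1.03 ± 0.22), Cyp51 (0.92 ± 0.17) and Hmgcs1 (0.84 ± 0.16). Keap1 held in 15 of 20 settings, and its decrease was lost when the fit was limited to the libraries compared.

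Of 81 oxidative phosphorylation subunits limma, edgeR and DESeq2 each called 0, 1 had an unadjusted p under 0.05, and the median was 0.16. Of 84 cytosolic ribosomal protein genes limma called 0 and edgeR 0, DESeq2 called 1, and 0 had an unadjusted p under 0.05. Their median of 0.06 turned to −0.13 relative to all genes under quantile normalization.

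**Figure D4:**
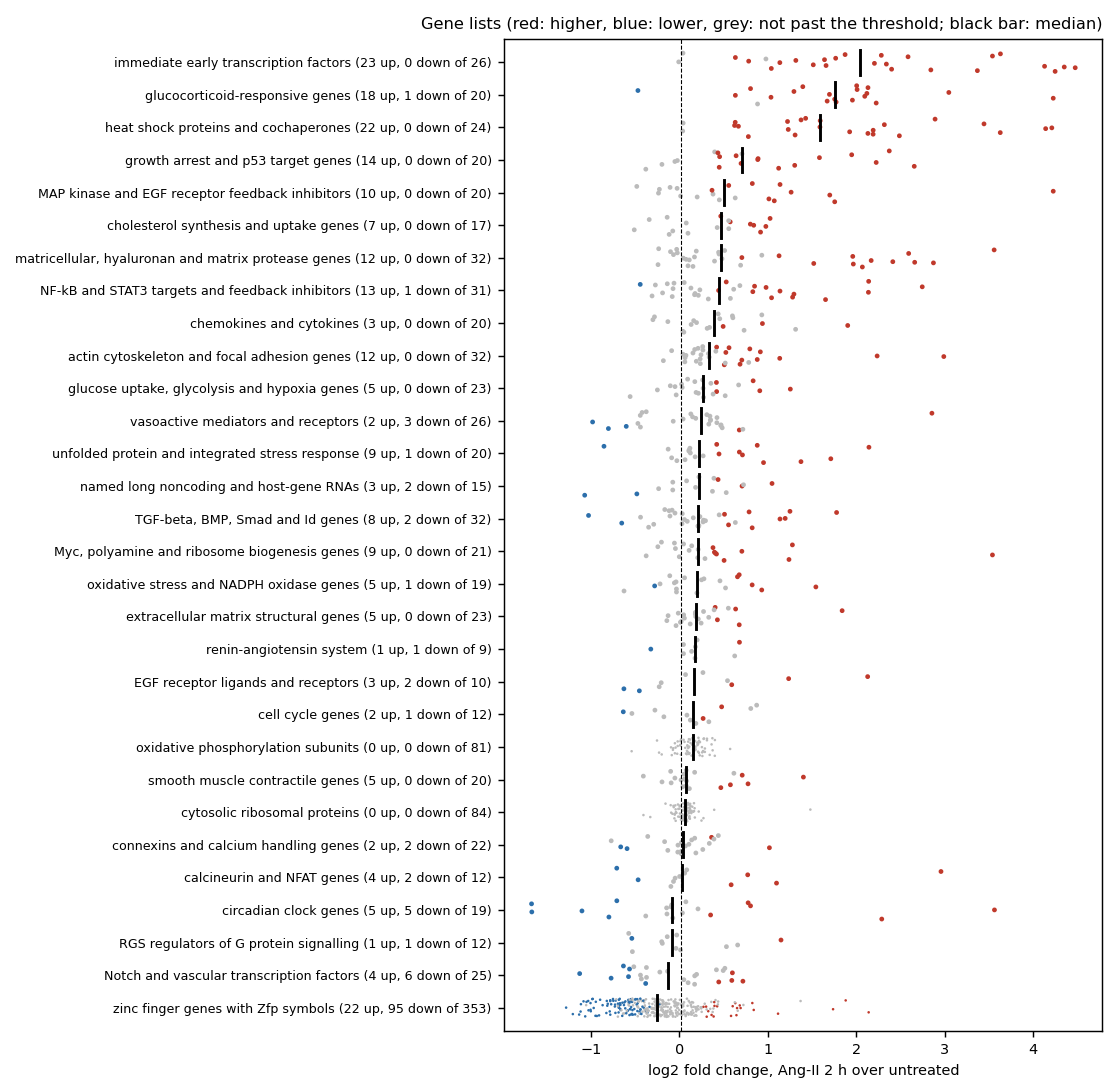
Log2 fold change at 2 h of every measured member of the 30 gene lists, 1 point per gene, in red if called higher, blue if called lower and grey otherwise, with the median of each list as a bar and the median of all genes as a dashed line. The immediate early, heat shock and glucocorticoid lists have the highest medians, at 2.04, 1.59 and 1.76, and the zinc finger list the lowest, at −0.25.

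The genes that fell over 2-fold changed by less, with 3 past 4-fold. The median genomic span was 13.5 kb for the 108 protein-coding ones among them, 23.1 kb for the 376 over 2-fold higher and 24.6 kb for all protein-coding genes, which is given as a description. Smim5, a small integral membrane protein gene (chr11:115899966-115906269, GRCm38), had the largest decrease, from 28.6, 36.8, and 39.3 to 5.82, 9.35, and 8.66 (-2.08 ± 0.24, limma adjusted p = 2.01e-05). Rcor2, a corepressor of the CoREST family, went from 7.74, 6.2, and 6.59 to 1.46, 1.45, and 1.16 (-1.98 ± 0.24). The rule that named both genes required groups without overlap, and Smim5 overlaps Recql5 over 6304 bases.

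The next in size were enzymes, trafficking genes and regulators. Gal3st3, a sulfotransferase, fell by 1.80 on the log2 scale, Rab17, a small GTPase, fell by 1.82 and Ndst3, a heparan sulfate enzyme, fell by 1.75. Syt15, a synaptotagmin, went from 36.4, 36.6, and 36.3 to 12.4, 13.7, and 11.1 (-1.52 ± 0.13), with 3 untreated values almost alike. Rrad, a small GTPase that inhibits calcium channels, went from 110.3, 162, and 192 to 50.9, 46, and 63.8 (-1.50 ± 0.30) and Cxxc5, a zinc finger protein of BMP and Wnt signalling, from 42.8, 48.2, and 60.7 to 18.2, 20.5, and 16.2 (-1.43 ± 0.16). Ky and Prr15 fell by 1.47 and by 1.44 on the log2 scale.

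Developmental transcription factors moved in both directions. Of 25 Notch and vascular factors 4 rose and 6 fell, against 10.6% and 9.68% of all genes (median −0.13). Meox2, a growth arrest homeobox gene of vascular muscle, went from 10.4, 11.7, and 9.51 to 4.08, 5.18, and 4.45 (-1.12 ± 0.18), and Hey2 and Twist1 fell by 0.77 and by 0.63 on the log2 scale, while Foxo3 and Gata6 rose by 0.72 ± 0.12 and 0.59 ± 0.14. Hox genes, which were counted as a family after the values were seen, fell in 18 of 27 and rose in 0 by limma, with a median of −0.68, against 9.68% of all genes lower. edgeR called 17 of them lower and DESeq2 18, both with 0 higher, and 20 were lower and 0 higher at an unadjusted p under 0.05.

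The Hox genes with the largest decreases belong to the A cluster. Hoxa3 went from 41.8, 40.2, and 44.8 to 20.1, 15.1, and 16.6 (-1.27 ± 0.12, limma adjusted p = 3.51e-06) and Hoxa9 from 10.6, 7.21, and 9.91 to 4.34, 1.34, and 4.7 (-1.42 ± 0.33), and without replicate 2, the lowest of the treated pools in both, the changes were -1.18 and -0.94. When any one of the 6 libraries was left out, 10 to 13 of the 27 were called lower. Hoxa2 and Hoxb7 changed by -1.25 ± 0.21 and -1.01 ± 0.22. The Hox genes of a cluster overlap each other and antisense transcripts, and the strand setting of the counting was not given in the sources used here.

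Zinc finger genes were lower more often than higher. Of 353 genes with Zfp symbols 95 fell and 22 rose, against 9.68% and 10.6% of all genes, with a median of −0.25. On the scale of equal totals 212 fell and 9 rose, and under quantile normalization 75 fell and 15 rose. The largest decreases were those of Zfp607b, from 4.47, 5.23, and 5.05 to 1.98, 1.56, and 1.67 (-1.28 ± 0.21) and Zfp273 from 4.51, 3.69, and 4.6 to 1.57, 1.73, and 1.41 (-1.20 ± 0.26). Against the family Zfp948 rose from 18.5, 19.4, and 14.8 to 65.2, 52.7, and 82.5 (1.88 ± 0.17) and Zfp52 from 12.7, 14.9, and 11.8 to 50.6, 36.7, and 48.5 (1.74 ± 0.17), with Zfp36, the mRNA-binding protein above, as the largest increase.

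Of 1658 genes of another biotype than protein-coding, or of none, 96 were called higher and 134 lower, against 10.6% and 9.68% of all genes. Several lie beside induced coding genes, and without the strand of the reads they cannot be told from them. Gm20481, which had the largest increase of all, from 3.61, 0.88, and 7.81 to 70.2, 108, and 81 (4.57 ± 0.45), is annotated as protein-coding at chr17:34969912-34972136 (GRCm38) on the strand opposite to Hspa1a and overlaps it over 2225 bases. Gm10501, annotated as antisense, overlaps Hspa1l over 2387 bases and rose by 3.93 ± 0.33.

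Other genes known only by a Gm number with large increases were Gm15287 (3.89 ± 0.33), Gm43123 (3.65 ± 0.39) and Gm9817 (3.60 ± 0.38). Abra, which encodes an actin-binding activator of SRF signalling, rose from 10.2, 14.4, and 18.6 to 198, 165, and 211 (3.72 ± 0.34, limma adjusted p = 1.72e-06) and completes the 15 largest increases named by the rule. Among 15 listed long noncoding and host-gene RNAs 3 rose and 2 fell, against 10.6% and 9.68% of all genes. Mir22hg, the host gene of miR-22, rose by 1.05 ± 0.19, and Carmn, a smooth muscle RNA that hosts miR-143 and miR-145, went from 28.6, 26.3, and 34.9 to 15, 11.5, and 15.5 (-1.07 ± 0.23). Meg3 and Snhg1 rose by 0.71 ± 0.22 and 0.44 ± 0.15 and Dleu2 fell by 0.48 on the log2 scale, in 13 of 19, 12 of 19 and 13 of 19 settings. Malat1 and Neat1 differed by 0.18 ± 0.18 and -0.07 ± 0.16.

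How long the 2 h levels lasted can be read from 3 libraries of WT mice after 24 h of Ang-II in the same table. Because the 2 h libraries enter both comparisons, the levels are given side by side. The 434 genes over 2-fold higher at 2 h took 7.36%, 7.61%, and 6.17% of the reads at 24 h, between their shares untreated and at 2 h, and the 134 lower genes took 0.142%, 0.135%, and 0.165%, where they had taken 0.328% to 0.332% untreated and 0.102% to 0.117% at 2 h. Fos, at 34.7, 28.7, and 15.4, Arc, at 9.82, 9.86, and 4.4, and Hspa1b, at 434, 514, and 179, overlapped their untreated range at 24 h. Ptgs2, at 221, 300.1, and 75.2, Mt2, at 239, 344, and 363, Lox, at 763, 761, and 549, and Fosl1, at 24.6, 37.2, and 13.9, still lay above it. Of the genes that had fallen, Smim5, at 3.67, 2.46, and 5.72, and Dbp, at 106, 125, and 141, remained below the untreated range. Between 24 h and 2 h limma called 2416 genes higher and 2765 lower, and 3985 and 1574 when libraries were scaled to the same total.

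The same treatment was measured in other mice, the Cn-Ctl mice of the genotype experiment, male mice that had received tamoxifen and are labelled as carrying floxed CnB1 (the calcineurin regulatory subunit gene) without Myh11-CreERT2. The study also uses the name Cn-Ctl for Cre-carrying mice without floxed alleles. Tamoxifen was given at 10 to 12 weeks of age and the mice were used weeks later. Treated Cn-Ctl mice were likewise kept only with a systolic pressure above 130 mmHg. The study discarded an untreated Cn-Ctl replicate that deviated from the others in its principal component analysis. The Cn-Ctl libraries compared were 3 at 2 h and 2 untreated, of 5.27 to 7.45 M reads. In a table of their own 680 genes (3.91%) were higher and 202 (1.16%) lower. Of the 434 genes over 2-fold higher in WT 423 were measured there and 306 (72.3%) were called higher, with a median log2 fold change of 1.71 against 1.44 in WT. Of the 134 lower genes all were measured and 43 (32.1%) called lower, with medians of −1.42 and −1.17. The genes over 2-fold higher in both numbered 300, which is 69.1% of those in WT and 59.4% of the 505 in Cn-Ctl.

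Single genes are given side by side. The log2 fold changes of Errfi1, Dnajb1, Abra and Rcan1 were 4.23 ± 0.19, 3.63 ± 0.25, 3.72 ± 0.34 and 2.96 ± 0.21 in WT and 4.49 ± 0.34, 4.61 ± 0.37, 4.47 ± 0.44 and 3.42 ± 0.36 in Cn-Ctl. The clock genes Nfil3, Dbp and Per3 changed there by 4.42 ± 0.64, -2.40 ± 0.39 and -2.62 ± 0.35. Hbegf had 33.3 and 45.7 in the 2 untreated and 345, 302, and 214 in the 3 treated Cn-Ctl libraries (2.84 ± 0.37). Rgs2, which rose in WT, differed there by -0.13 ± 0.44 and Hoxa3 by -1.48 ± 0.27. Of the lists, heat shock genes were called higher in 21 of 24 in Cn-Ctl, immediate early genes in 16 of 26 and glucocorticoid-responsive genes in 11 of 20. Of 351 Zfp genes 10 were called lower and 9 higher there, against 1.16% and 3.91% of all genes, with a median of −0.29. The tables were normalized separately, so no test across them was made, and without untreated replicate 2 or 3 there 371 or 353 genes were called higher and 41 or 51 lower.

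**Figure D5:**
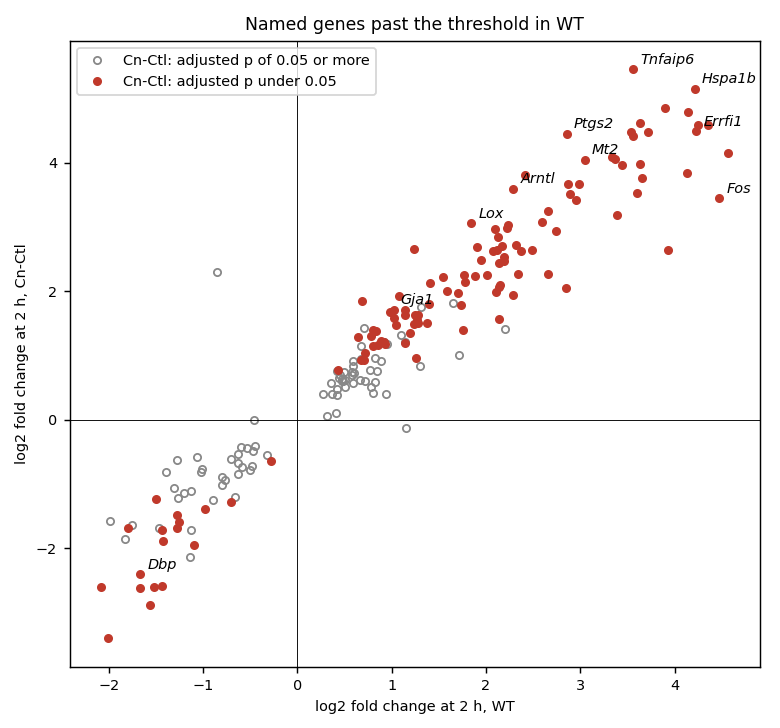
Log2 fold change at 2 h in Cn-Ctl mice (vertical axis) against that in WT mice (horizontal axis) for the 197 named genes past the threshold in WT. Filled points mark the 117 that also pass it in Cn-Ctl, and 195 of the 197 have the same sign in both, the exceptions being Rgs2 and Sdf2l1.

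Whether the WT response differed from that of mice pretreated for 5 days with CsA, an inhibitor of calcineurin, was tested as the difference of the 2 responses over 12 libraries. In limma 23 genes (0.149%) passed, 20 with a higher and 3 with a lower log2 change in WT, and 2119 had an unadjusted p under 0.05. edgeR called 12 and 3, and DESeq2 250 and 104. Quantile normalization left 0 in either direction in limma, and leaving out single libraries gave 0 to 54 higher and 0 to 3 lower. For the response of Rcan1 the difference was 1.02 ± 0.30 (limma adjusted p = 0.163), and for that of Fos it was 2.02 ± 0.74 (limma adjusted p = 0.264). A difference that did not pass does not show that the responses were alike.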

How the data were processed

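RNA of pooled aortas was reverse transcribed from oligo-dT and sequenced on a Genome Analyzer IIx. Reads were aligned by the authors with Bowtie 0.12.7 and quantified with RSEM 1.16 against Ensembl transcripts, with GRCm38 named in the submitters' processing notes. The deposited signal equals (reads + 0.5) divided by a scaled library size, and 100% of the values gave whole reads within 0.02. The normalization method and strand setting were not given in the sources used here. Scaling the recovered reads with TMM, a method of edgeR, gave the same counts of 1638 higher and 1491 lower genes and the same median of 0.018. All 18 libraries of the table, 19 to 38.9 M reads each, entered 1 model of group means on log2(signal + 0.5) in limma 3.58.1 (R 4.3.3), with Benjamini-Hochberg adjustment over 15399 genes and a threshold of 0.05. Biotypes came from GENCODE M21, and promoters were taken from RefSeq. edgeR 4.0.16 and DESeq2 1.42.0 on the recovered reads were alternatives, beside other scalings, added values, filters and left-out libraries. Scaling to equal column totals was added after seeing the data.

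The comparison and the gene lists were chosen with earlier results of these data known. By the rule, the 15 largest changes in each direction, the 5 largest in each direction among genes that are not protein-coding, and 2 to 6 members of each list (the largest changes past the threshold and the highest signals) were named, with a group mean of at least 5 and no overlap of the groups required of the largest, beside 4 genes the study measured by RT-qPCR (Ier3, Gja1, Rcan1, Ptgs2). This gave 238 of 268 genes, and 30 were named after their values were seen. Some of them are not reported here. Of the 268, 67 overlap another listed gene. On simulated data of 15399 genes in all 18 libraries of the table, limma found 78 of 100 genes changed 2-fold and 22 of 100 changed 1.5-fold, with 2 false calls. The changed genes were drawn from those with a mean signal of at least 5, and no pool that stood apart was simulated.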

Additional observations from a re-analysis of the deposited data

Results flagged for a closer look

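The response to 2 h of Ang-II of 4 named genes differed between WT mice and mice pretreated with CsA by the test of the difference itself (limma, adjusted over all genes). Arntl had a log2 response 3.26 higher in WT, where it went from 0.966, 0.768, and 0.71 to 5.88, 5.46, and 6.4, against 6.31, 3.08, and 6.64 to 1.97, 1.98, and 3.23 with CsA (limma adjusted p = 0.0399). Its untreated values were above the WT range in all 3 CsA libraries. Errfi1 had a response 1.79 higher in WT, and with CsA went from 119, 97.7, and 72 to 409, 617, and 532 (limma adjusted p = 0.0372). Cdkn1a had a response 1.47 higher in WT, and with CsA went from 78.1, 48.6, and 79.1 to 135, 120.2, and 89.8 (limma adjusted p = 0.0399). Syt15 fell in WT by more, a difference of −1.06, and with CsA went from 20.5, 24.4, and 20.1 to 17.3, 15.7, and 13.6 (limma adjusted p = 0.0399). The 4 differences passed the threshold in 13 of 25 settings for Arntl, in 17 of 26 for Errfi1, in 15 of 26 for Cdkn1a and in 13 of 26 for Syt15, and the highest limma adjusted p over the settings was 0.136, 0.126, 0.136 and 0.136. Untreated Errfi1 and Cdkn1a also lay above the untreated WT range in all 3 CsA libraries, and Syt15 below it.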

How the results depend on the processing

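With all libraries scaled to equal totals 768 genes were higher and 4708 lower at 2 h, 270 and 492 of them over 2-fold, and between 24 h and 2 h there were 3985 and 1574. Array weights gave 2844 and 2638. Decreases over 2-fold numbered 211 with 0.1 added before the log, 74 with a mean of at least 5, 215 by edgeR and 238 by DESeq2. Leaving out single libraries gave 1131 to 1789 higher and 963 to 1295 lower genes. In Cn-Ctl mice equal totals gave 432 and 561, array weights 1314 and 766, DESeq2 367 lower, and leaving out libraries 353 to 598 higher and 41 to 187 lower.

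The difference between the WT and CsA responses, with 20 genes higher and 3 lower, was the least stable result. It gave 0 and 0 under quantile normalization, 13 and 17 with equal totals, 51 and 17 with only the groups compared, 126 and 63 with array weights, 12 and 3 by edgeR, 250 and 104 by DESeq2, and 0 to 54 and 0 to 3 without single libraries, where 54 belongs to CsA untreated replicate 1. Same-numbered WT libraries correlated at −0.29, −0.001 and 0.056 in their deviations, so the numbers do not pair them. A block for the replicate number gave 1562 higher and 1397 lower genes at 2 h, and 1 and 0 for the difference from CsA.

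List medians are given relative to that of all genes. Under quantile normalization they were −0.12 for calcineurin, −0.34 for contractile, −0.11 for matrix structural, 0.0658 for glucose, −0.26 for Notch and vascular factor, −0.13 for ribosomal protein and −0.17 for Zfp genes. With array weights they were 0.15 for vasoactive, 0.52 for matricellular and 0.12 for connexin genes. With a mean of at least 5 they were 0.0695 for cytokine, 0.25 for cell cycle, 0.36 for long noncoding and −0.22 for Zfp genes. With 0.1 added, matricellular genes had 0.48 and growth arrest genes 0.79. By edgeR these were 0.498 and 0.79, and by DESeq2 0.499 and 0.79. Without single libraries the medians ranged from 1.79 to 2.13 for immediate early genes, 0.0812 to 0.196 for the renin-angiotensin system, 0.11 to 0.27 for vasoactive genes, 0.35 to 0.50 for NF-kB and STAT3, 0.40 to 0.51 for matricellular, 0.65 to 0.77 for growth arrest, 0.19 to 0.31 for Myc and polyamine, 0.16 to 0.29 for stress response, −0.0315 to 0.142 for connexin, 0.0444 to 0.226 for cell cycle, 0.15 to 0.39 for long noncoding and −0.28 to −0.22 for Zfp genes.

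Single genes turned in direction under quantile normalization, Myh11 to −0.47, Tagln to −0.47, Flna to −0.46, Sod3 to −0.42, Atp2b4 to −0.28, Ski to −0.24 and Col4a1 to −0.0511, and with equal totals, Ppp3cb to −0.28, Atp2b4 to −0.27, Srf to −0.25, Hsf1 to −0.25 and Ccnd3 to −0.0193. The cause of these shifts was not tested. Of the 197 named genes past the threshold 152 passed it in every one of 20 settings and 45 lost it in at least 1. With 3 pools a group, limma found 22 of 100 simulated 1.5-fold changes, so that many changes of that size would not be called with this number of pools.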
